A study of Homo sapiens and Mus musculus with 69 samples.

Results

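REST is a zinc finger repressor of neuronal genes, and it works through corepressor complexes that contain the histone demethylase LSD1 (gene *KDM1A*), a CoREST scaffold (*RCOR1*, *RCOR2* or *RCOR3*) and the histone deacetylases HDAC1 and HDAC2. The genes described here are these 7 together with *GFI1*, *GFI1B* and *INSM2*, which encode repressors of the SNAG-domain class. They were chosen by name, as 10 of the 20516 genes in the human table, and 9 of them were found under their mouse symbols among the 18501 genes of the KP1 table, in which *Gfi1b* has no row. All of them are described in every group of small cell lung cancer (SCLC) cells that was sequenced.

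Bulk RNA-Seq gave 69 libraries in 23 groups of 3 libraries from 5 SCLC cell lines. H82 and H524 are human lines whose neuroendocrine (NE) program runs on NEUROD1. H69 and COR-L88 are other human NE lines, and KP1 is a mouse NE line that has lost *Rb1* and *Trp53*. H82 cells had 7 groups, namely parental cells, cells with a doxycycline-inducible vector for the *NOTCH1* intracellular domain (*N1ICD*) without and with doxycycline (dox), with the vector plus *REST* KO without and with dox, and with the vector plus *STING1* KO without and with dox. H524 cells had 5 groups, which were parental cells, the *N1ICD* vector without and with dox, and a dox-inducible *REST* vector without and with dox. H69 cells had 3 groups, which were parental cells and the *N1ICD* vector without and with dox. COR-L88 cells had 5 groups, namely DMSO, the LSD1 inhibitor TAS1440, TAS1440 plus a gamma-secretase inhibitor (GSI), and DMSO and TAS1440 in *STING1* KO cells. KP1 cells had 3 groups, which were DMSO, TAS1440 and TAS1440 plus GSI.

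Dox was used at 1 μg/mL and TAS1440 at 100 nM, and the GSI was BMS-708163 at 2 μM in COR-L88 cells and DBZ at 10 μM in KP1 cells. The labels give no time of treatment, whereas the methods describe collection of COR-L88 cells after 28 days, of KP1 cells after more than 28 days and of overexpressing cells after at least 28 days of dox. The legends give 56 days of dox for intact and *REST* KO H82 cells and for both H524 vectors. For H69 cells they give more than 56 days. The vectors were introduced with lentivirus and kept under drug selection, each KO was made with Cas9 and a guide to the gene, and adherent cells were collected in the overexpression experiments, so groups with and without dox can also differ in which cells were harvested. In the legends of immunoblots, *REST* KO and *STING1* KO cells are single-cell clones, and which clones were sequenced is not said. A difference between KO and intact cells thus cannot be told apart from the choice of clone. The sources do not say whether the 3 libraries of a group came from separate cultures, and *P* values then measure only the spread between these libraries, which may be technical. In bulk samples, fewer cells of a type and less RNA per cell cannot be told apart.

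LSD1 removes methyl groups from lysine 4 of histone H3, and CoREST binds LSD1 and the deacetylases and brings them to nucleosomes. REST recruits CoREST to a DNA motif called RE1, which lies near many genes for synaptic and secretory proteins, and GFI1, GFI1B and the INSM factors recruit LSD1 and CoREST through the SNAG peptide at their N terminus. In SCLC, *REST* is a target gene of Notch signaling and marks cells that have lost the NE program, whereas LSD1 inhibitors are known to release Notch signaling in NE cells.

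To show what REST binds, 3 RE1 sequences are printed that match the 17-base consensus in full within 5000 bases of the start of a REST target gene. They were read from GRCh37 with GENCODE annotation, 5′ to 3′ on the strand of the motif, with the motif in capitals between 6 flanking bases on each side. These genes were chosen because they are named again in the results for REST activity. The site of *CHGA*, which encodes the secretory granule protein chromogranin A, lies at chr14:93389862-93389890 on the plus strand, in an intron and 381 bases from the gene start. The site of *CHRNB2*, which encodes a nicotinic receptor subunit, lies at chr1:154540424-154540452 on the plus strand, in an untranslated exon part and 184 bases from the start. The site of *GRIN1*, which encodes an NMDA receptor subunit, lies at chr9:140033706-140033734 on the plus strand, in an untranslated exon part and 922 bases from the start. The last sequence is the nearest match at *RCOR2*, at chr11:63683320-63683348 in an intron and 1302 bases from the start, and it differs from the consensus at 1 position.
*CHGA*: cgagttTTCAGCACCGCGGACAGcgcctc
*CHRNB2*: cgcggcTTCAGCACCACGGACAGcgcccc
*GRIN1*: ccccgcTTCAGCACCGCGGACAGcgccgg
*RCOR2*, 1 mismatch: gacagtTTTAGAGCCCAGGCCAAgcaggg

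A full match on either strand was found near 10 of 24 REST target genes (41.7%), near 411 of 20176 protein-coding genes (2.04%) and near none of the 10 genes described here. These counts include all chromosomes. With 1 mismatch allowed, it was found near 17 of the 24 target genes (70.8%), 4375 of all protein-coding genes (21.7%) and 3 of the 10 genes (30%), which were *RCOR1*, *RCOR2* and *RCOR3*. A match is a description of letters in this window and not a site shown to be bound.

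Values are log2(RPKM + 1) as deposited, where RPKM is the read number scaled to gene length and library size. Libraries are called by their number in the tables, 1 to 60 for the human lines. The human and KP1 tables were normalized separately and are compared only within themselves. A log2 fold change on this scale understates the change of genes near 0. Read counts were not used here, so absolute depth is unknown; from the steps between the lowest values, relative library size ranged from 0.698 to 1.52 times the median in the human table and from 0.872 to 1.07 in the KP1 table. *NOTCH1*, on average, rose from 1.16 to 4.86 in H82, from 1.20 to 8.06 in H524 and from 0.39 to 7.99 in H69 cells with the *N1ICD* vector and dox, and reads of the vector and of the endogenous gene cannot be told apart. *STING1* mRNA was not lower in H82 *STING1* KO cells with dox (1.61) than in intact cells with dox (1.11), and in COR-L88 cells with TAS1440 it was 1.07 with *STING1* KO and 2.20 without. The summed level of 7 NE markers fell in step with several results below, from 40.1 to 9.72 in H82, from 43.5 to 30.9 in H524 and from 40.6 to 6.80 in H69 cells with *N1ICD* and dox, and from 41.3 to 17.8 in COR-L88 and from 28.7 to 7.11 in KP1 cells with TAS1440. Of 7 markers of leukocytes, endothelium and fibroblasts, *PTPRC*, *CD3E* and *CDH5* were near 0 in every human group, whereas the sum ranged from 0.10 to 23.4 over the human groups. With *N1ICD* and dox, *COL1A1* was at 11.0 in H69, 6.79 in H82 and 5.29 in H524 cells, *COL1A2* at 7.61, 0.00 and 2.24 and *DCN* at 3.74, 0.45 and 0.17, and the part of these changes in the results was not tested.

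*REST* rose and *RCOR2* fell with *N1ICD* in all 3 human lines and with TAS1440 in COR-L88 and KP1 cells, and *KDM1A* fell with them in each case but H69. On the log2(RPKM + 1) scale, *REST* rose 3.19-fold in H82, 6.57-fold in H524 and 32.5-fold in H69 cells with *N1ICD*, 7.39-fold in COR-L88 and 4.03-fold in KP1 cells with TAS1440, and *RCOR2* came to 0.165, 0.246, 0.166, 0.386 and 0.315 times its control in these 5 comparisons. *INSM2* fell by over 3 log2 units with *N1ICD* in H82 and H69 cells but not in H524 cells, and its change in H82 cells with *REST* KO was not called. Overexpression of *REST* alone in H524 cells was followed by no called change in *RCOR2* or *KDM1A*. Genes were counted as changed at an adjusted *P* under 0.05, adjusted over all genes tested in the comparison, and the percentage of all genes called stands beside each count of members as the background. *GFI1B* was tested in no comparison, *GFI1* was not tested within H82 cells and *Insm2* was not tested in KP1 cells, where all their values lay below 1. *GFI1* entered the models over several lines through the other lines, so its differences with H82 cells reflect a level near 0 there and are no test of a response.

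In H82 cells, 5 of the 8 genes tested changed with *N1ICD* and dox (50.3% of all genes), 5 of 8 in *REST* KO cells (52.2%) and 4 of 8 in *STING1* KO cells (37.8%). With dox, 5 of 8 differed between *REST* KO and intact *N1ICD* cells (38.4%), and without dox 0 of 8 did by limma (15.2%), among which *REST* was the only gene with an unadjusted *P* under 0.05. Between *STING1* KO and intact cells, 2 of 8 differed with dox (39.2%) and 4 of 8 without it (34.6%). *INSM2* alone differed between *N1ICD* cells without dox and parental cells, making 1 of 8 (13.7%). The response to dox itself differed between *REST* KO and intact cells for 3 of 8 genes (16.6%) and between *STING1* KO and intact cells for 2 of 8 (9.26%). These H82 comparisons share groups, so their counts are not independent of each other.

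In H524 cells, 5 of the 9 genes tested changed with *N1ICD* and dox (32.3% of all genes) and 2 of 9 with the *REST* vector and dox (2.83%). The 2 vectors with dox differed in 8 of 9 genes (42.8%), and the responses to dox differed in 3 of 9 (19.1%). Without dox, *N1ICD* cells differed from parental cells in 3 of 9 genes (26.6%), and *REST* vector cells differed in 0 of 9 by limma (0.3%), although *INSM2* had an unadjusted *P* under 0.05. In H69 cells, 6 of 9 changed with *N1ICD* and dox, where 82.3% of all genes were called, and 2 of 9 differed between *N1ICD* cells without dox and parental cells (27.4%). The count with dox includes *GFI1*, which passed the filter in H69 cells only through the vector libraries without dox. It also includes *REST*, which passed there only with the dox libraries. The H69 cells with the vector and no dox also differed from parental H69 cells in *NEUROD1*, a factor of the NE program, at 9.39 against 4.37 on average. The response to *N1ICD* differed between H69 and H82 cells in 4 of 9 genes (59.3%), between H69 and H524 cells in 6 of 9 (53.2%) and between H524 and H82 cells in 3 of 9 (29.5%), where the counts with H82 cells include *GFI1*.

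In COR-L88 cells, 5 of 9 genes changed with TAS1440 relative to DMSO (57.7% of all genes), 3 of 9 with TAS1440 plus GSI relative to DMSO (24.5%), and 4 of 9 differed between TAS1440 alone and TAS1440 plus GSI (46.7%). In COR-L88 *STING1* KO cells, 6 of 9 changed with TAS1440 (43.3%). *STING1* KO cells differed from intact cells in 3 of 9 genes with TAS1440 (27.1%) and, by limma, in 0 of 9 with DMSO (5.41%), where no gene had an unadjusted *P* under 0.05. The response to TAS1440 differed between *STING1* KO and intact cells in 0 of 9 genes (7.93%), with *KDM1A* alone at an unadjusted *P* under 0.05. In KP1 cells, 4 of 8 genes changed with TAS1440 relative to DMSO (36.7%), 4 of 8 differed between TAS1440 alone and TAS1440 plus GSI (32%), and 0 of 8 changed with TAS1440 plus GSI relative to DMSO (1.97%), where *Rest* and *Gfi1* had an unadjusted *P* under 0.05. Both KP1 counts with TAS1440 alone include *Rest*, which passed the filter in KP1 cells only with the TAS1440 libraries. Many of these counts lie near the share of all genes called and are then no result about these genes as a set. The size and direction of the changes follow by role, though not for every comparison.

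**Figure D1:**
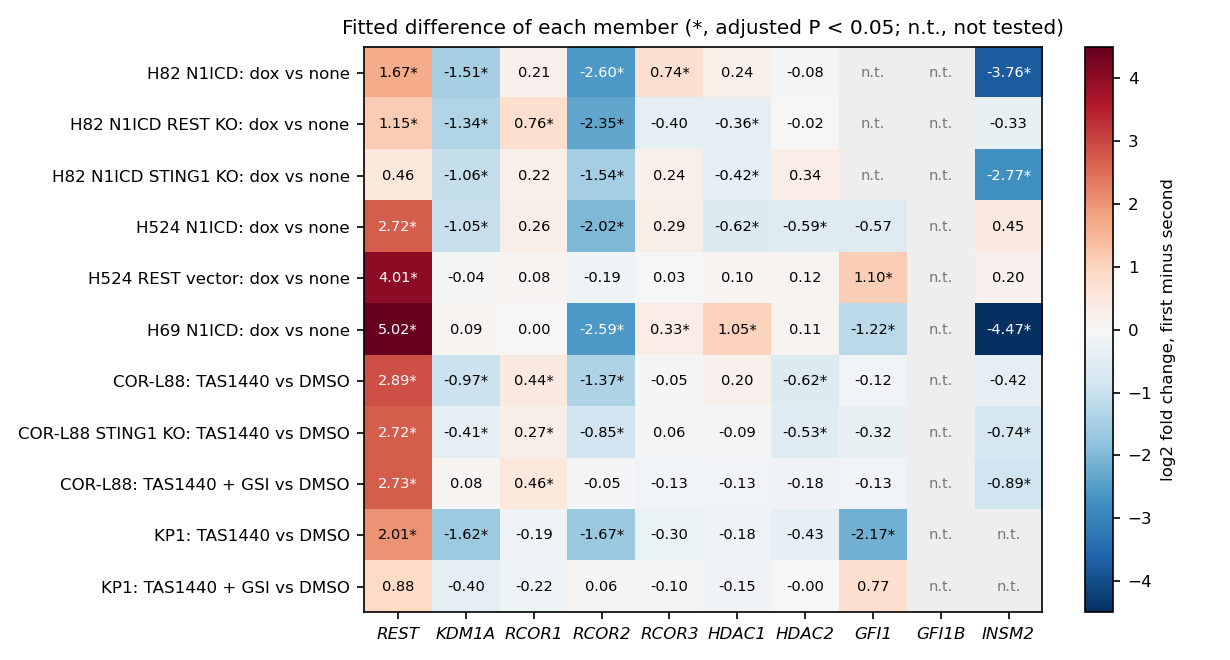
Log2 fold changes on the log2(RPKM + 1) scale (color, saturated at the ends of the scale, and printed value) of the 10 genes (columns) in 11 comparisons (rows); an asterisk marks an adjusted *P* under 0.05 and n.t. a gene that was not tested. *REST* is positive and *RCOR2* negative in the *N1ICD* rows of all lines and the rows of TAS1440 alone, and the *REST* vector row is near 0 for *RCOR2* and *KDM1A*.

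*REST* (chromosome 4, 57774042 to 57832974 in GRCh37, the build of all positions given here, plus strand) encodes the DNA-binding repressor itself and is the target of the KO. The annotation places *NOA1* over part of it, and the sources do not say whether counting used the strand. Its log2 values in H82 *N1ICD* cells were 4.42, 4.80 and 4.70 before and 6.48, 6.13 and 6.33 after dox, a log2 fold change of 1.67 ± 0.22 (SE; adjusted *P* = 5.45e-06), without overlap. *REST* KO cells kept *REST* mRNA, at 3.99 to 4.20 without and 4.95 to 5.89 with dox, which was 1.05 ± 0.22 log2 units below intact cells with dox (adjusted *P* = 0.00114). The mRNA level thus does not show how much protein was lost, and a Cas9 cut can leave the transcript in place. The paper shows immunoblots of *REST* KO and *STING1* KO clones, which were not read here. Within *REST* KO cells, *REST* still rose by 1.15 ± 0.22 with dox (adjusted *P* = 0.00026).

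In H82 *STING1* KO cells, the 3 libraries without dox, at 5.17 to 5.35, lay above all 3 of intact *N1ICD* cells without dox, and dox brought *REST* to 5.67 to 5.75. This step of 0.46 ± 0.22 did not pass the test (adjusted *P* = 0.109) except in a model with only these groups (0.0179). It was smaller than the step in intact cells by 1.21 ± 0.31 (adjusted *P* = 0.0195), a difference that was lost without library 55 (adjusted *P* = 0.0522).

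In H524 cells, *REST* had values of 2.93, 2.66 and 4.20 with the *N1ICD* vector and no dox, all below the parental values of 4.86, 4.95 and 4.52, although this difference of -1.52 ± 0.69 did not pass (adjusted *P* = 0.118). Dox brought them to 5.96, 5.85 and 6.12, a rise of 2.72 ± 0.69 (adjusted *P* = 0.00771). With the *REST* vector, the values were 5.05, 5.03 and 4.90 without and 6.87, 10.72 and 9.43 with dox, a rise of 4.01 ± 0.69 (adjusted *P* = 0.00752). The 3 vector libraries with dox thus spread widely, and the lowest of them still lay above every H524 *N1ICD* library. With dox, H524 cells with the *REST* vector held more *REST* mRNA than those with *N1ICD*, by 3.03 ± 0.69 (adjusted *P* = 0.00287), and vector and endogenous reads cannot be told apart.

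H69 cells started from almost no *REST*. Parental values were 0.00, 0.12 and 0.10, and the *N1ICD* vector without dox gave 1.34, 0.00 and 0.12. With dox they were 5.54, 5.46 and 5.52, a rise of 5.02 ± 0.30 (adjusted *P* = 5.81e-07). Without dox only library 49 reached 1, so *REST* passed the filter in H69 cells only with the dox libraries. The *P* value is then no independent test of this rise. The rise was larger than that in H82 cells by 3.35 ± 0.68 (adjusted *P* = 7.32e-05) and than that in H524 cells by 2.31 ± 0.68 (adjusted *P* = 0.00457), whereas those of H524 and H82 cells differed by 1.04 ± 0.68 (adjusted *P* = 0.263; 95% interval -0.33 to 2.42). With dox, the H69 libraries lay below those of H82 and H524 cells, so the larger rise started from a lower level and ended at a lower one.

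COR-L88 cells had *REST* values of 3.55, 3.57 and 3.52 with DMSO and 6.25, 6.57 and 6.48 with TAS1440, a rise of 2.89 ± 0.23 (adjusted *P* = 2.74e-07). TAS1440 plus GSI gave 6.31, 6.19 and 6.32, which overlapped with TAS1440 alone and differed from it by 0.16 ± 0.23 (adjusted *P* = 0.605; 95% interval -0.34 to 0.66). In COR-L88 *STING1* KO cells, *REST* rose by 2.72 ± 0.23 (adjusted *P* = 7.58e-07), and the responses differed by -0.17 ± 0.33 (adjusted *P* = 0.786).

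KP1 cells showed another order. *Rest* was at 0.03, 0.02 and 0.03 with DMSO, at 2.48, 1.99 and 1.65 with TAS1440 and at 0.99, 0.72 and 1.02 with TAS1440 plus GSI, 3 groups without overlap. *Rest* rose with TAS1440 by 2.01 ± 0.19 (adjusted *P* = 4.72e-05) and was higher with TAS1440 alone than with GSI added by 1.13 ± 0.19 (adjusted *P* = 0.00169). Of the other libraries only KP1 library 9, at 1.02, reached 1, so *Rest* passed the filter only with the TAS1440 libraries. These *P* values are then no independent tests. The step of 0.88 ± 0.19 from DMSO to TAS1440 plus GSI missed the threshold (adjusted *P* = 0.0567) and passed it with a pseudocount of 0.1 (log2 fold change 3.00, adjusted *P* = 0.00237) and with median-centred libraries (0.89, adjusted *P* = 0.0495). The GSI was a different compound in KP1 than in COR-L88 cells.

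**Figure D2:**
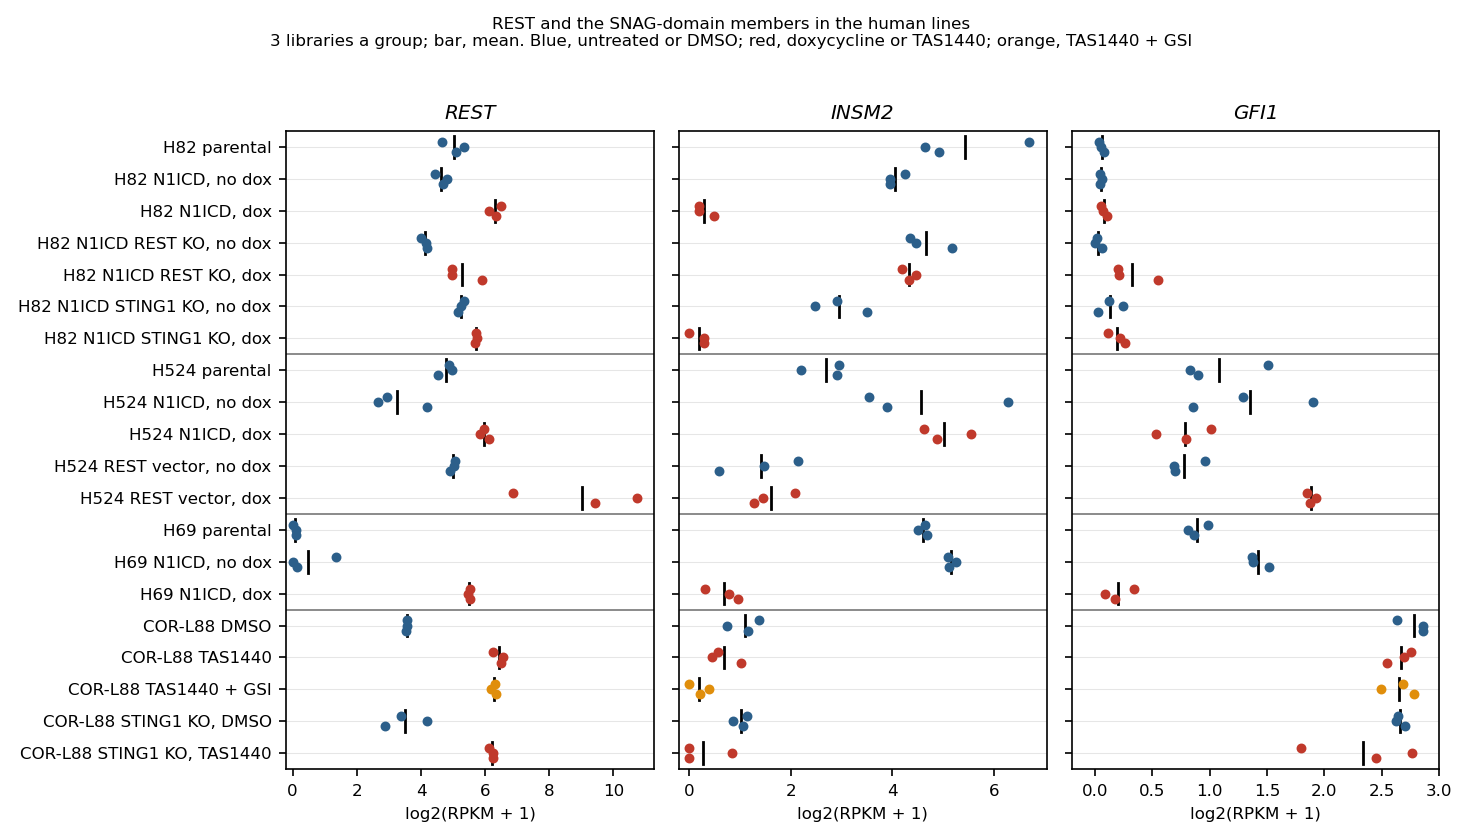
Log2(RPKM + 1) values of *REST*, *INSM2* and *GFI1* (panels) in each of the 60 human libraries, grouped by the 20 groups; each point is a library and each bar the mean of 3. *REST* is near 0 in H69 cells without dox and highest in H524 cells with the *REST* vector and dox, and *INSM2* with dox is near 0 in intact H82 cells and between 4.19 and 4.48 in H82 cells with *REST* KO.

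*RCOR2* (chromosome 11, 63678702 to 63684636, minus strand) encodes the CoREST paralog that is known for its expression in neural and embryonic stem cells. H82 *N1ICD* cells had 4.76, 5.70 and 5.81 without and 3.24, 2.40 and 2.83 with dox, and fell by 2.60 on the log2 scale (SE 0.34, adjusted *P* = 5.54e-06) and below every parental library (4.34 to 5.65). In *REST* KO cells the values were 4.98, 4.95 and 5.54 without and 2.84, 2.77 and 2.83 with dox, and fell by 2.35 (SE 0.34, adjusted *P* = 1.51e-05). With dox, *REST* KO and intact cells overlapped and differed by -0.01 ± 0.34 (adjusted *P* = 0.983; 95% interval -0.73 to 0.70), and the responses differed by 0.25 ± 0.48 (adjusted *P* = 0.776; 95% interval -0.76 to 1.26). In *STING1* KO cells *RCOR2* fell by 1.54 (SE 0.34, adjusted *P* = 0.00155), to 2.61 to 3.51. Without dox its mean was 4.61 there and 5.42 in intact *N1ICD* cells.

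In H524 cells, *RCOR2* was at 5.40, 5.64 and 5.37 without and 3.68, 3.29 and 3.36 with *N1ICD* and dox, and fell by 2.02 (SE 0.24, adjusted *P* = 1.5e-05). With the *REST* vector it was at 6.20, 5.53 and 5.54 without and 5.91, 5.29 and 5.50 with dox, which overlapped and differed by -0.19 ± 0.24 (adjusted *P* = 0.728; 95% interval -0.70 to 0.32). The responses to the 2 vectors differed by -1.84 ± 0.33 (adjusted *P* = 0.00142). With dox, *REST* mRNA was higher with the *REST* vector, and the part of *REST* in this difference was not tested.

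In H69 cells, *RCOR2* was at 5.46, 5.10 and 5.54 without and 2.82, 2.71 and 2.79 with dox, and fell by 2.59 (SE 0.14, adjusted *P* = 3.45e-07). The 3 lines ended near each other with *N1ICD*, at means of 2.82 in H82, 3.44 in H524 and 2.77 in H69 cells, and none of the 3 differences in response between them was called, the adjusted *P* values being 0.993 for H69 and H82, 0.245 for H69 and H524 and 0.31 for H524 and H82.

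COR-L88 cells had less *RCOR2*, at 2.28, 2.76 and 2.95 with DMSO, and 1.16, 1.58 and 1.12 with TAS1440, and fell by 1.37 (SE 0.23, adjusted *P* = 0.000171). With GSI added the values were 2.50, 2.72 and 2.63, within the range of DMSO (difference -0.05 ± 0.23, adjusted *P* = 0.916; 95% interval -0.53 to 0.44). *REST* was high in both TAS1440 groups, whereas *RCOR2* was low only with TAS1440 alone, by 1.33 (SE 0.23, adjusted *P* = 0.000374) relative to TAS1440 plus GSI. *NOTCH1* mRNA was itself at 6.73 with GSI added and at 2.35 with TAS1440 alone. In *STING1* KO cells *RCOR2* fell by 0.85 with TAS1440 (SE 0.23, adjusted *P* = 0.00794), and with TAS1440 it was 0.78 ± 0.23 above intact cells (adjusted *P* = 0.0232), a call lost without any of libraries 13, 15, 43 and 45 (adjusted *P* = 0.0706 to 0.0974). The difference in response was not called (0.52 ± 0.32, adjusted *P* = 0.34).

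KP1 cells behaved as COR-L88 cells did in direction. *Rcor2* was at 4.76, 4.85 and 5.27 with DMSO, 3.48, 2.85 and 3.55 with TAS1440 and 5.47, 5.53 and 4.06 with TAS1440 plus GSI. It fell by 1.67 with TAS1440 (SE 0.39, adjusted *P* = 0.00855) and was lower by 1.73 with TAS1440 alone than with GSI added (SE 0.39, adjusted *P* = 0.00818).

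*RCOR1* (chromosome 14, 103058986 to 103196898, plus strand) and *RCOR3* (chromosome 1, 211431719 to 211489727, plus strand) encode the more broadly expressed CoREST paralogs, and their values moved less. *RCOR1* lay between 2.52 and 4.66 over all 60 human libraries. It rose with TAS1440 in COR-L88 cells by 0.44 ± 0.08 (adjusted *P* = 0.000609), from 2.62 to 2.67 with DMSO to 3.04 to 3.15, and by 0.46 ± 0.08 with TAS1440 plus GSI (adjusted *P* = 0.00125). In COR-L88 *STING1* KO cells it rose by 0.27 ± 0.08 (adjusted *P* = 0.0215), which was lost without library 41 or 45 (adjusted *P* = 0.0606 and 0.0885). In H82 *REST* KO cells it rose by 0.76 ± 0.21 with dox (adjusted *P* = 0.00594), to 3.81, 4.10 and 4.66. These lay 0.84 ± 0.21 above intact cells with dox (adjusted *P* = 0.00463, and 0.0535 with only these groups in the model). With *N1ICD* in intact H82, H524 and H69 cells the differences were 0.21, 0.26 and 0.00, and none was called.

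*RCOR3* rose with *N1ICD* and dox in H82 cells, from 4.55, 4.91 and 4.56 to 5.53, 5.41 and 5.30, by 0.74 ± 0.17 (adjusted *P* = 0.00163), and in H69 cells by 0.33 ± 0.08 (adjusted *P* = 0.00486). H82 *REST* KO cells had 5.04, 5.01 and 4.98 without and 4.86, 4.78 and 4.17 with dox, a difference of -0.40 ± 0.17 (adjusted *P* = 0.0588) whose sign is opposite to that in intact cells. The responses differed by -1.14 ± 0.24 (adjusted *P* = 0.00302). In H524 cells, *RCOR3* was at 3.98 to 4.57 with the *N1ICD* vector and no dox and at 4.38 to 4.75 with it, without a call (0.29 ± 0.24, adjusted *P* = 0.379). Parental H524 cells had 4.81 to 5.41. COR-L88 groups stayed between 4.28 and 4.68. In KP1 cells, *Rcor1* and *Rcor3* lay between 0.79 and 1.39 in all 9 libraries, and neither was called in any comparison.

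**Figure D3:**
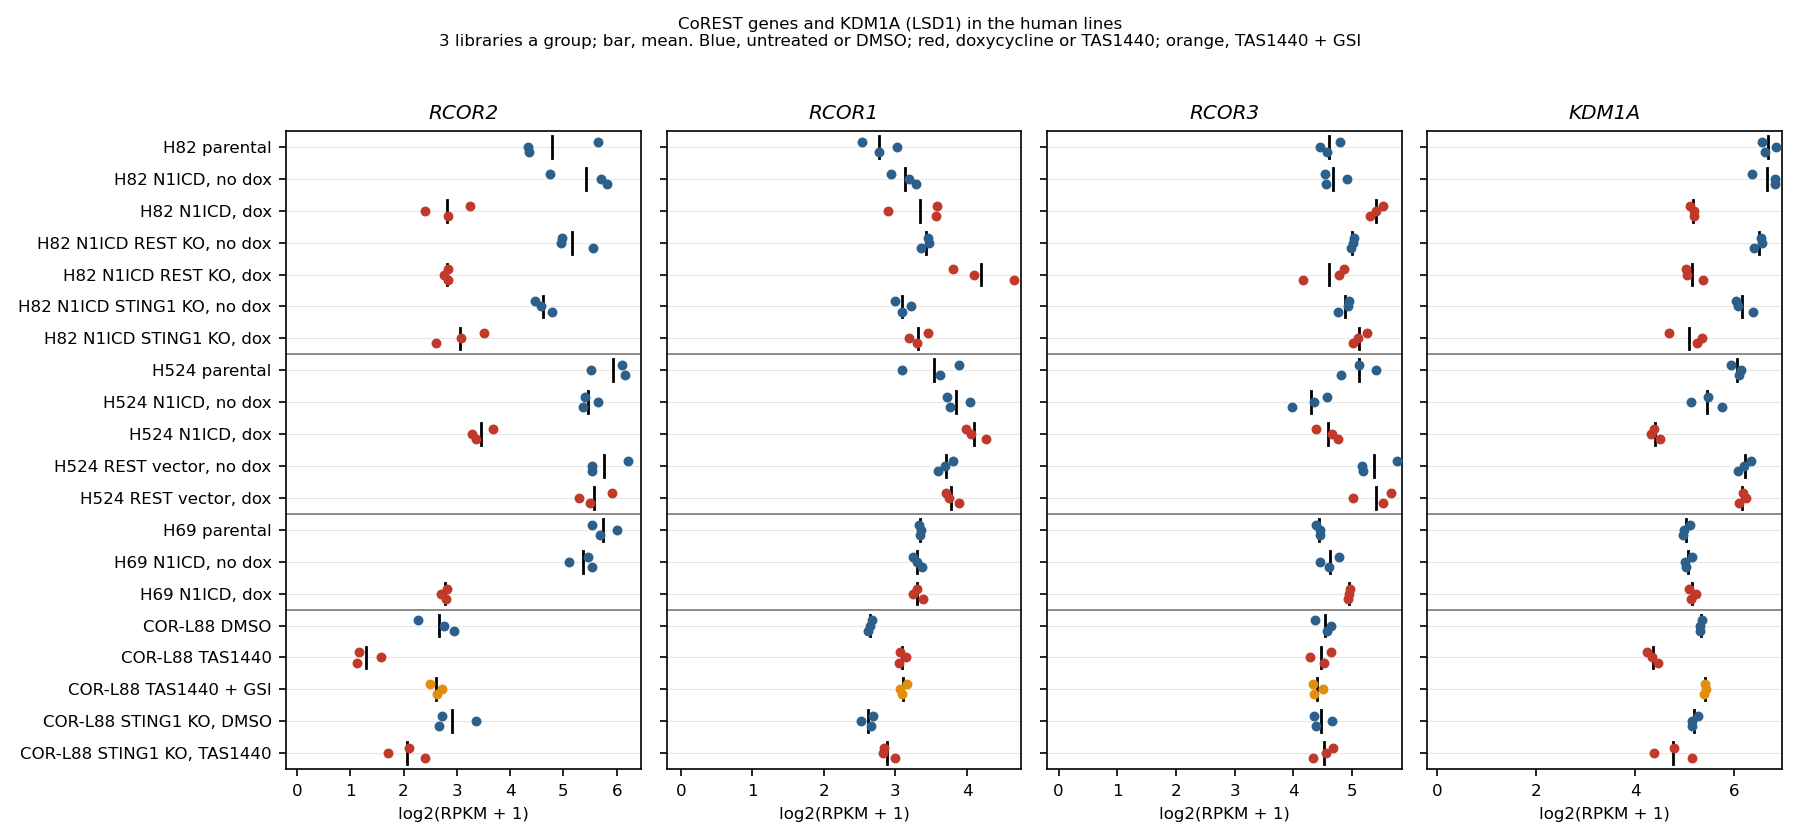
Log2(RPKM + 1) values of *RCOR2*, *RCOR1*, *RCOR3* and *KDM1A* (panels) in each of the 60 human libraries by group; each point is a library and each bar the mean of 3. *RCOR2* and *KDM1A* are lower with *N1ICD* and dox in H82 and H524 cells and with TAS1440 alone in COR-L88 cells, and in H69 cells *RCOR2* is lower and *KDM1A* is not.

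The make-up of the CoREST mRNA pool was described by the share of *RCOR2* in the summed RPKM of *RCOR1*, *RCOR2* and *RCOR3*, which depends on the gene lengths the authors used. In H82 *N1ICD* cells the share was 56.3% ± 8.37 (SD, n = 3) without and 10.8% ± 2.44 with dox, in H524 cells 57.3% ± 2.83 and 20.3% ± 4.45, and in H69 cells 55.3% ± 2.67 and 13.1% ± 0.455. In H82 cells with *N1ICD* and dox, *RCOR3* made up 72.9% ± 5.62 in place of *RCOR2*. H82 *REST* KO cells went from 45.9% ± 6.56 to 12.6% ± 0.566, as low as intact cells. With the *REST* vector the share was 50.2% ± 1.87 without and 46.1% ± 2.94 with dox.

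In COR-L88 cells *RCOR3* was the main paralog in every group, and the *RCOR2* share was 16.4% ± 3.05 with DMSO, 4.91% ± 1.87 with TAS1440 and 15.6% ± 0.876 with TAS1440 plus GSI. In COR-L88 *STING1* KO cells it was 20.1% ± 3.57 and 10.3% ± 3.40. In KP1 cells *Rcor2* made up nearly the whole pool, at 91.8% ± 1.24 with DMSO, 81.5% ± 5.58 with TAS1440 and 93.1% ± 3.30 with GSI added. An exact two-sided permutation test of 3 against 3 libraries cannot go below *P* = 0.1, and 19 of the 30 comparisons of the *RCOR2* share reached it (adjusted *P* = 0.158 by Benjamini-Hochberg over the 30), so no share difference can pass 0.05 in this design.

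**Figure D4:**
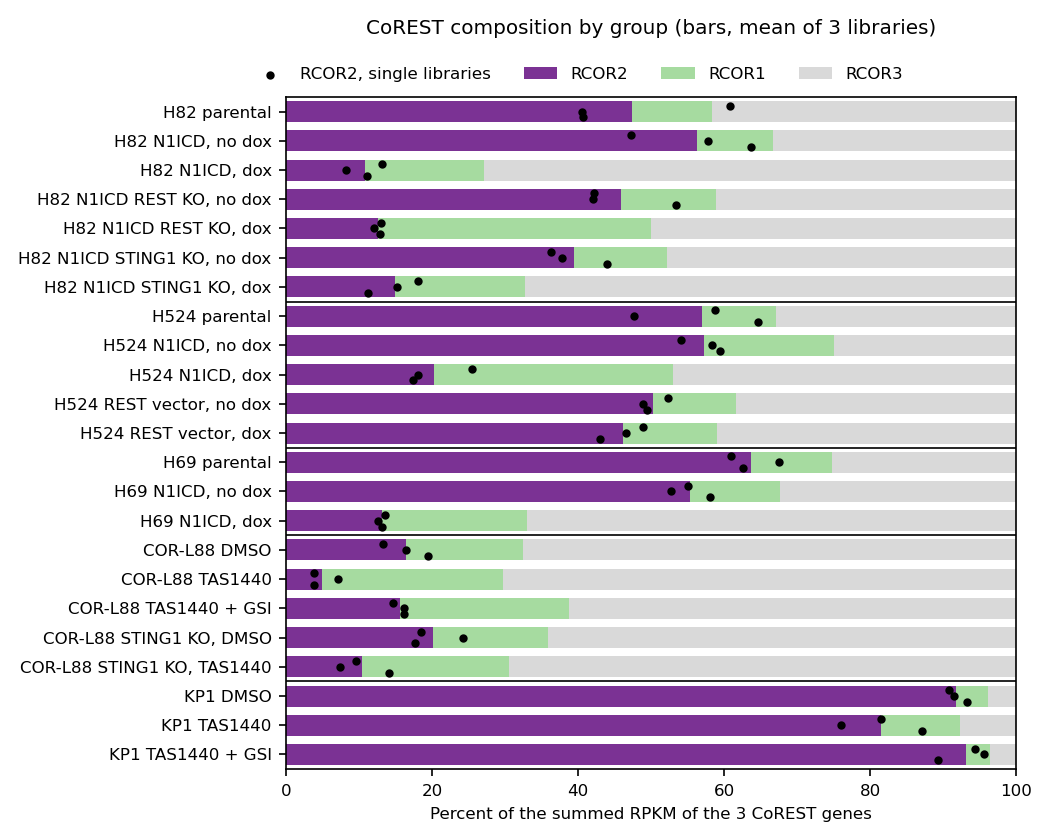
Mean percent of the summed RPKM of *RCOR1*, *RCOR2* and *RCOR3* (stacked bars from 0 to 100%) in each group of 3 libraries; dots are the *RCOR2* percent of single libraries, and the KP1 bars are the mouse genes. The *RCOR2* part is 56.3% in H82 *N1ICD* cells without dox and 10.8% with dox, and 50.2% and 46.1% with the *REST* vector in H524 cells.

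*KDM1A* (chromosome 1, 23345936 to 23410182, plus strand) encodes LSD1, the demethylase that TAS1440 inhibits. In H82 *N1ICD* cells it was at 6.37, 6.82 and 6.82 without and 5.12, 5.18 and 5.18 with dox, and fell by 1.51 (SE 0.18, adjusted *P* = 1.88e-06). It fell by 1.34 in *REST* KO cells (SE 0.18, adjusted *P* = 6.08e-06) and by 1.06 in *STING1* KO cells (SE 0.18, adjusted *P* = 0.000136). Without dox its mean was 6.16 with *STING1* KO and 6.67 in intact *N1ICD* cells. With dox, *KDM1A* differed by -0.01 ± 0.18 between *REST* KO and intact cells (adjusted *P* = 0.977; 95% interval -0.39 to 0.37).

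In H524 cells, *KDM1A* fell with *N1ICD* from 5.46, 5.13 and 5.76 to 4.37, 4.32 and 4.50, by 1.05 (SE 0.16, adjusted *P* = 0.000163). *N1ICD* cells without dox already lay below parental cells (5.93 to 6.14) by 0.61 (SE 0.16, adjusted *P* = 0.0131, and 0.177 with only these groups in the model). With the *REST* vector the values were 6.33, 6.21 and 6.08 without and 6.17, 6.23 and 6.10 with dox, a difference of -0.04 ± 0.16 (adjusted *P* = 0.928; 95% interval -0.38 to 0.30). The responses to the 2 vectors differed by -1.01 ± 0.22 (adjusted *P* = 0.00589).

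H69 cells were the exception. *KDM1A* was at 5.16, 5.00 and 5.03 without and 5.10, 5.24 and 5.12 with dox, which overlapped (difference 0.09 ± 0.07, adjusted *P* = 0.256; 95% interval -0.07 to 0.24). The difference in response was 1.60 ± 0.21 relative to H82 cells (adjusted *P* = 7.04e-08) and 1.14 ± 0.21 relative to H524 cells (adjusted *P* = 2.73e-05). Untreated H69 cells had the lowest *KDM1A* level of the 4 human lines by mean, at 5.02, and with dox the H82 libraries came to 5.12 to 5.18, near those of H69 cells, and the H524 libraries to 4.32 to 4.50, below them.

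In COR-L88 cells, *KDM1A* was at 5.35, 5.32 and 5.30 with DMSO, 4.24, 4.35 and 4.47 with TAS1440 and 5.42, 5.43 and 5.38 with TAS1440 plus GSI. The gene of the drug's target thus fell by 0.97 with TAS1440 (SE 0.15, adjusted *P* = 7.92e-05) but was 0.08 ± 0.15 above DMSO with GSI added (adjusted *P* = 0.734; 95% interval -0.23 to 0.40). In *STING1* KO cells the values were 4.78, 4.39 and 5.15 with TAS1440 and 5.15 to 5.26 with DMSO, and fell by 0.41 (SE 0.15, adjusted *P* = 0.0354) that was lost without any of libraries 40 to 44 (adjusted *P* = 0.0506 to 0.171). In KP1 cells, *Kdm1a* was at 3.02, 2.98 and 3.41 with DMSO, 1.30, 1.68 and 1.58 with TAS1440 and 2.94, 2.94 and 2.36 with GSI added, and it fell by 1.62 with TAS1440 (SE 0.21, adjusted *P* = 0.000265). *KDM1A* was lower with TAS1440 alone than with GSI added by 1.06 in COR-L88 (SE 0.15, adjusted *P* = 7.44e-05) and by 1.22 in KP1 cells (SE 0.21, adjusted *P* = 0.00166). The changes of *KDM1A* thus had the direction of those of *RCOR2* in each line but H69.

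*HDAC1* (chromosome 1, 32757684 to 32799236, plus strand) and *HDAC2* (chromosome 6, 114254192 to 114332472, minus strand) encode the deacetylases, which also serve in other complexes. *HDAC1* lay between 7.65 and 10.17 over the 60 human libraries, and processed pseudogenes of *HDAC1* in the annotation could share its reads. It rose with *N1ICD* in H69 cells from 7.89, 7.71 and 7.65 to 8.72, 8.84 and 8.83, by 1.05 ± 0.08 (adjusted *P* = 3.26e-06), and fell in H524 cells from 8.79, 9.05 and 8.93 to 8.31, 8.22 and 8.39, by 0.62 (SE 0.18, adjusted *P* = 0.0175), a call lost without library 25 or 26 (adjusted *P* = 0.0534 and 0.0723). The 2 responses differed by 1.66 ± 0.19 (adjusted *P* = 8.5e-09). In intact H82 cells the difference was 0.24 ± 0.14 (adjusted *P* = 0.176, and 0.00528 with quantile normalization).

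In H82 cells with *REST* KO or *STING1* KO, *HDAC1* with dox was 0.83 and 0.57 below intact cells (SE 0.14, adjusted *P* = 0.000195 and 0.00448; 0.0632 for *STING1* KO with only these groups in the model). Its fall with dox in *REST* KO cells, by 0.36 (SE 0.14, adjusted *P* = 0.0405), was lost without any of libraries 28 to 33 (adjusted *P* = 0.0682 to 0.103) and with quantile normalization (adjusted *P* = 0.145). That in *STING1* KO cells, by 0.42 (SE 0.14, adjusted *P* = 0.0255), was lost without library 55, 57 or 60 (adjusted *P* = 0.0681 to 0.093). In COR-L88 cells *HDAC1* differed by 0.20 ± 0.11 between TAS1440 and DMSO (adjusted *P* = 0.142), and it was 0.33 ± 0.11 higher with TAS1440 alone than with GSI added (adjusted *P* = 0.0243), a call lost without any of libraries 14 to 18 (adjusted *P* = 0.0538 to 0.105) and with median-centred libraries (0.126).

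*HDAC2* lay between 3.33 and 5.37 in the human libraries. It fell with TAS1440 in COR-L88 cells from 4.62, 4.53 and 4.55 to 4.08, 3.88 and 3.87, by 0.62 (SE 0.09, adjusted *P* = 6.36e-05), and by 0.53 in COR-L88 *STING1* KO cells (SE 0.09, adjusted *P* = 0.000343). With GSI added, the values of 4.36 to 4.43 lay below all 3 DMSO libraries (difference -0.18 ± 0.09, adjusted *P* = 0.191). In H524 cells it fell with *N1ICD* by 0.59 (SE 0.20, adjusted *P* = 0.0358), lost without any of libraries 22, 23, 25, 26 and 27 (adjusted *P* = 0.051 to 0.118). In H82 and H69 cells the differences were -0.08 ± 0.17 and 0.11 ± 0.11 and were not called. The mean of *HDAC2* in H82 *N1ICD* cells without dox was 4.05 with *STING1* KO and 4.78 in intact cells. *HDAC2* made up 1.40% to 5.41% of the summed RPKM of *HDAC1* and *HDAC2* in the human groups. In the KP1 table, whose scale and gene lengths cannot be set against those of the human table, the share of *Hdac2* was 57.4% to 64.6%. *Hdac1* and *Hdac2* were not called in KP1 cells.

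**Figure D5:**
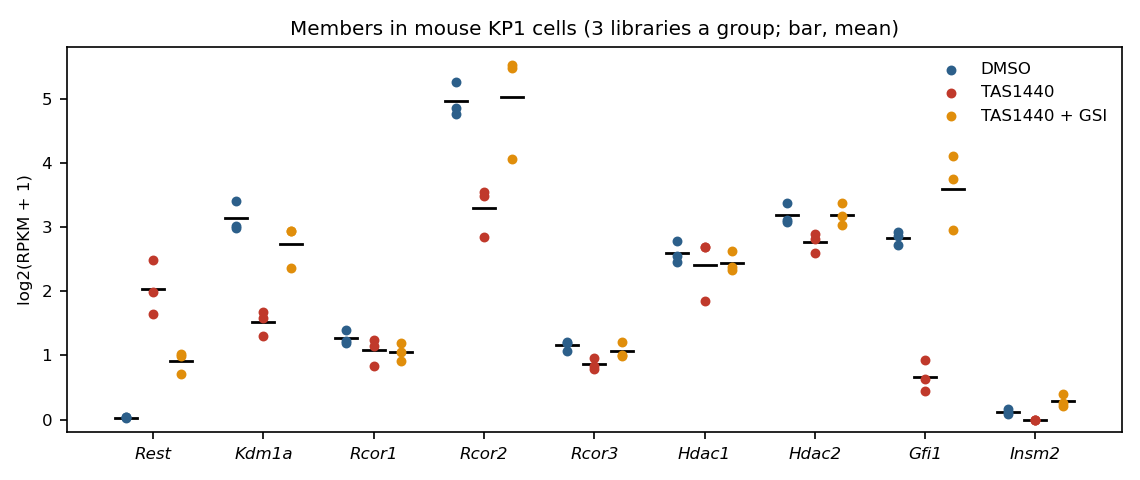
Log2(RPKM + 1) values of the 9 mouse genes in the 9 KP1 libraries by treatment (DMSO, TAS1440, TAS1440 plus GSI); each point is a library and each bar the mean of 3. *Rest* is at 0.02 to 0.03 with DMSO and 1.65 to 2.48 with TAS1440, and *Kdm1a*, *Rcor2* and *Gfi1* are lower with TAS1440 than in the other groups.

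*INSM2* (chromosome 14, 36003370 to 36006260, plus strand) encodes a zinc finger repressor related to the NE factor INSM1. H82 *N1ICD* cells had 4.24, 3.95 and 3.95 without and 0.19, 0.19 and 0.49 with dox, and fell by 3.76 (SE 0.38, adjusted *P* = 2.62e-07). In *REST* KO cells the values were 4.34, 4.46 and 5.17 without and 4.19, 4.48 and 4.33 with dox, a difference of -0.33 ± 0.38 (adjusted *P* = 0.492; 95% interval -1.13 to 0.48). With dox, *INSM2* was thus 4.04 ± 0.38 log2 units higher in *REST* KO than in intact cells (adjusted *P* = 2.66e-07, 16.5-fold on this scale), and the response differed by 3.43 ± 0.54 (adjusted *P* = 0.000221). Of the 3 genes that fell with *N1ICD* in intact cells, *KDM1A* and *RCOR2* also fell in *REST* KO cells and *INSM2* was not called there. Beside this, *NOTCH1* was at 9.55 in *REST* KO and 4.86 in intact cells with dox and the summed level of the NE markers at 21.5 and 9.72, and the part of these in the result was not tested. In *STING1* KO cells *INSM2* fell by 2.77 (SE 0.38, adjusted *P* = 1.54e-05). Without dox its mean was 2.96 there and 4.05 in intact *N1ICD* cells.

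The baseline of *INSM2* in H82 cells varied between groups. Parental libraries had 6.70, 4.64 and 4.93, which lay above those of *N1ICD* cells without dox by 1.37 ± 0.38 (adjusted *P* = 0.0231), but without parental library 1 the difference was 0.73 (adjusted *P* = 0.0771), and without library 5 or 6 it was not called either (adjusted *P* = 0.0861 and 0.0796).

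H69 cells had *INSM2* values of 5.11, 5.25 and 5.12 without and 0.32, 0.78 and 0.97 with dox, and fell by 4.47 (SE 0.15, adjusted *P* = 1.54e-08). H524 cells went the other way in value, with 3.53, 6.28 and 3.89 without and 4.62, 5.55 and 4.88 with dox (difference 0.45 ± 0.59, adjusted *P* = 0.608). Parental H524 cells had a mean of 2.69. Without library 23, which holds the value of 6.28, *INSM2* rose by 1.31 in H524 cells (adjusted *P* = 0.0287). The response in H524 cells differed from that in H82 cells by 4.21 ± 0.66 (adjusted *P* = 5.66e-06) and that in H69 cells from that in H524 cells by -4.93 ± 0.66 (adjusted *P* = 1.33e-07).

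With the *REST* vector in H524 cells, *INSM2* was at 2.15, 1.48 and 0.60 without and 2.08, 1.46 and 1.27 with dox (difference 0.20 ± 0.59, adjusted *P* = 0.905; 95% interval -1.08 to 1.48). In COR-L88 cells it was near 1 with DMSO (0.74 to 1.38), so that its change is understated here, and it fell by 0.89 with TAS1440 plus GSI (SE 0.24, adjusted *P* = 0.0135), lost without library 10 or 16 (adjusted *P* = 0.0597 and 0.0586). In COR-L88 *STING1* KO cells it fell by 0.74 with TAS1440 (SE 0.24, adjusted *P* = 0.0213), lost without library 40, 42, 43 or 45 (adjusted *P* = 0.0564 to 0.085), and in intact cells with TAS1440 alone the difference was -0.42 ± 0.24 (adjusted *P* = 0.148). *Insm2* in KP1 cells was at 0.00 to 0.40 in all 9 libraries.

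*GFI1* (chromosome 1, 92938600 to 92952482, minus strand) encodes a SNAG-domain repressor known from blood and neuroendocrine cells. It was highest in COR-L88 cells, at 2.63, 2.86 and 2.86 with DMSO, 2.76, 2.69 and 2.54 with TAS1440 and 2.68, 2.49 and 2.78 with GSI added, groups that overlapped and between which no difference was called. In H69 cells it fell from 1.37, 1.38 and 1.52 to 0.34, 0.09 and 0.18 with *N1ICD*, by 1.22 (SE 0.09, adjusted *P* = 1.86e-06). Parental H69 values were 0.81 to 0.99, so *GFI1* passed the filter in H69 cells only through the vector libraries without dox. The *P* value is then no independent test of this fall. In H524 cells with the *REST* vector it was at 0.96, 0.69 and 0.70 without and 1.85, 1.92 and 1.88 with dox, a rise by 1.10 ± 0.24 (adjusted *P* = 0.0297). This call was lost without any of libraries 34 to 39 (adjusted *P* = 0.0519 to 0.121), which takes the count for the *REST* vector from 2 to 1 gene. With *N1ICD* in H524 cells, *GFI1* moved by -0.57 ± 0.24 (adjusted *P* = 0.0929), and the responses to the 2 vectors differed by -1.67 ± 0.34 (adjusted *P* = 0.00356).

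In KP1 cells, the *Gfi1* values were 2.86, 2.93 and 2.71 with DMSO, 0.63, 0.44 and 0.93 with TAS1440 and 3.75, 4.10 and 2.95 with TAS1440 plus GSI, without overlap. *Gfi1* fell by 2.17 with TAS1440 relative to DMSO (SE 0.27, adjusted *P* = 0.000232) and was lower by 2.94 than with GSI added (SE 0.27, adjusted *P* = 4.58e-05), and whether the 2 lines differ in this response was not tested, since their tables were made separately. H82 libraries had *GFI1* values of 0.00 to 0.55. *GFI1B* (chromosome 9, 135819387 to 135867074, plus strand), the paralog of the red cell and platelet lineages, was above 0 in 6 of 60 human libraries and at most 0.27.

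The other genes of these complexes were read from lists of their known parts, which were drawn up with earlier results of these data known. Of 9 other CoREST and LSD1 partners, 1 rose and 4 fell with *N1ICD* in H82 cells (median log2 fold change -0.44), 2 rose and 1 fell in H524 cells (0.04), 3 rose and 3 fell in H69 cells (0.14) and 3 rose and 5 fell with TAS1440 in COR-L88 cells (-0.40), where the medians of all genes tested were 0.00, -0.02, 0.08 and 0.01. None of the 9 was called with the *REST* vector in H524 cells. The background of all genes called was 50.3% in H82, 32.3% in H524 and 82.3% in H69 cells with *N1ICD*, 57.7% in COR-L88 and 36.7% in KP1 cells with TAS1440 and 2.83% with the *REST* vector, for these partners and for the lists that follow. *GSE1*, a CoREST-associated coiled-coil protein, fell in each of the 4, by 1.99 in H82 (SE 0.25, adjusted *P* = 3.95e-06), 1.39 in H524 (SE 0.26, adjusted *P* = 0.00106), 2.32 in H69 (SE 0.07, adjusted *P* = 5.77e-09) and 1.22 in COR-L88 cells (SE 0.15, adjusted *P* = 1.39e-05). *ZNF217*, a zinc finger protein that binds CoREST, rose by 1.49 ± 0.42 in H524 (adjusted *P* = 0.0153) and 4.61 ± 0.60 in H69 cells (adjusted *P* = 9.02e-05). *PHF21A*, the reader of unmethylated histone H3 in the complex, fell by 1.10 with TAS1440 in COR-L88 cells (SE 0.17, adjusted *P* = 9.42e-05). In KP1 cells, 4 of the 6 partners tested fell with TAS1440 and none rose.

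Of 10 other corepressors that REST is known to use, 0 rose and 3 fell with *N1ICD* in H82 cells (median -0.12), 1 rose and 3 fell in H524 cells (0.17), 4 rose and 1 fell in H69 cells (0.03) and 1 rose and 4 fell with TAS1440 in COR-L88 cells (-0.15). *SMARCA4*, the BRG1 ATPase, fell by 1.55 in H82 (SE 0.22, adjusted *P* = 1.36e-05) and 0.87 in H524 cells (SE 0.20, adjusted *P* = 0.00424). *EHMT2*, the G9a histone methyltransferase, fell by 1.08 in H82 (SE 0.21, adjusted *P* = 0.000388) and 0.66 in H524 cells (SE 0.18, adjusted *P* = 0.0103). In H69 cells *SIN3A* and *SIN3B*, scaffolds of the SIN3 deacetylase complex, rose by 0.58 ± 0.06 (adjusted *P* = 2.98e-05) and 0.93 ± 0.09 (adjusted *P* = 1.39e-05). None of the 10 was called with the *REST* vector, and in KP1 cells 1 of 8 tested fell with TAS1440. The counts in H82, H69, COR-L88 and KP1 cells lie below the share of all genes called (50.3%, 82.3%, 57.7% and 36.7%).

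Among 4 genes for the splicing and stability of REST, 3 fell and 0 rose with *N1ICD* in H82 cells, 1 fell and 0 rose in H524 cells and 3 fell and 1 rose in H69 cells, and with TAS1440 2 of the 3 tested fell in COR-L88 and 2 of 3 in KP1 cells, beside 50.3%, 32.3%, 82.3%, 57.7% and 36.7% of all genes called. *SRRM4* and *SRRM3* encode neural splicing factors, of which SRRM4 favors a truncated form of REST. *SRRM4* fell by 1.89 in H82 (SE 0.17, adjusted *P* = 4.98e-08), 1.47 in H524 (SE 0.24, adjusted *P* = 0.00036) and 2.15 in H69 cells (SE 0.13, adjusted *P* = 5.63e-07). *SRRM3* fell by 1.65 in H82 cells (SE 0.23, adjusted *P* = 8.43e-06) and by 1.08 with the *REST* vector in H524 cells (SE 0.25, adjusted *P* = 0.034), and with dox it was 3.46 ± 0.23 higher in H82 cells with *REST* KO than without (adjusted *P* = 2.26e-09). In KP1 cells, *Srrm3* and *Srrm4* fell by 1.48 (SE 0.11, adjusted *P* = 1.24e-05) and 1.79 (SE 0.13, adjusted *P* = 1.25e-05) with TAS1440. These are gene-level values, and the splice forms of *REST* were not measured.

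Of the 6 other SNAG-domain factors, 3 fell and 1 rose among 4 tested in H82 cells, 3 fell and 1 rose among 5 in H524 cells, 2 fell and 1 rose among 4 in H69 cells with *N1ICD*, and with TAS1440 3 of 4 fell in COR-L88 cells and 2 fell and 2 rose among 4 in KP1 cells, beside the same background, which in H69 cells (82.3%) exceeds the share called. *INSM1*, a factor of the NE program, fell by 3.18 in H82 (SE 0.36, adjusted *P* = 9.39e-07), 3.03 in H524 (SE 0.35, adjusted *P* = 1.33e-05) and 8.34 in H69 cells (SE 0.08, adjusted *P* = 1.7e-11) with *N1ICD*, and by 4.79 with TAS1440 in COR-L88 cells (SE 0.25, adjusted *P* = 5.86e-09). Its fall in H524 cells stands beside *INSM2*, which did not fall there. *SNAI2*, a mesenchymal repressor, rose by 6.25 ± 0.30 in H82 (adjusted *P* = 1.72e-11), 5.95 ± 0.59 in H524 (adjusted *P* = 3.25e-06) and 3.04 ± 0.17 in H69 cells (adjusted *P* = 3.19e-07). *SCRT1*, a neuronal repressor, was 3.44 ± 0.15 higher in H82 cells with *REST* KO and dox than in intact cells with dox (adjusted *P* = 2.38e-11), and with the *REST* vector in H524 cells *SCRT1* and *SCRT2* fell by 1.25 (SE 0.26, adjusted *P* = 0.0223) and 1.37 (SE 0.27, adjusted *P* = 0.0158).

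As a readout of REST activity, 24 known REST target genes were followed. With *N1ICD* in H82 cells, 17 of the 23 tested fell and 1 rose (median log2 fold change -2.04, with 50.3% of all genes called), with *CHGA* falling by 5.78 (SE 0.34, adjusted *P* = 2.51e-10). In *REST* KO cells 8 fell and 6 rose (median -0.23, with 52.2% of all genes called). With dox, 21 were higher and 1 lower in *REST* KO than in intact cells (median 3.10, against -0.06 for all genes, with 38.4% called), among them *CHRNB2*, at 9.85 against 3.57 (adjusted *P* = 3.47e-11). In *STING1* KO cells 5 fell and 3 rose with dox (median -0.23, with 37.8% of all genes called). Relative to intact cells, 16 were already lower and 2 higher without dox (median -1.61, with 34.6% called). With dox, 5 were lower and 4 higher than in intact cells (median -0.07, with 39.2% called). The first and last of these *STING1* KO counts lie near the share of all genes called and are then no result about the list. The response to dox was higher than in intact cells for 16 target genes and lower for 1 in *REST* KO cells (median 2.07, with 16.6% of all genes called). In *STING1* KO cells it was higher for 12 and lower for 0 (median 1.53, with 9.26% called), so a smaller fall was not particular to *REST* KO. In H524 cells, 11 fell and 2 rose with *N1ICD* (median -0.75, with 32.3% of all genes called). With the *REST* vector, 3 fell and 0 rose (median -0.89, with 2.83% called), which were *GRIN1* by 2.27 (SE 0.41, adjusted *P* = 0.00989), *STMN3* by 1.29 (SE 0.18, adjusted *P* = 0.00216) and *SYP* by 1.06 (SE 0.23, adjusted *P* = 0.0303). The median of the list was thus below that of all genes with both vectors in H524 cells, while *RCOR2* and *KDM1A* were called with *N1ICD* only.

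In H69 cells, 21 of 23 target genes fell and 2 rose (median -4.12), where 82.3% of all genes were called. In COR-L88 cells, 21 of 24 fell and 1 rose with TAS1440 (median -2.70, with 57.7% of all genes called). With TAS1440 plus GSI, 21 fell and 0 rose (median -2.43, with 24.5% called), where *REST* was also high and *RCOR2* and *KDM1A* were at the level of DMSO. *SYT4*, a synaptotagmin, fell from 10.0 to 0.39 with TAS1440 (adjusted *P* = 3.65e-13) and was listed at 0 in all 3 libraries with GSI added. In KP1 cells, 16 of 17 fell with TAS1440 (median -2.43, with 36.7% of all genes called) and by limma 0 of 17 changed with TAS1440 plus GSI (median -0.29, with 1.97% called). Genes such as *CHGA* and *SYP* are also NE markers, so the fall of this list and that of the NE program cannot be told apart here.

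Before any treatment, the 4 human lines already differed in these genes. By count, 7 of 9 differed between H82 and H524 cells (56.3% of all genes), 7 of 9 between H82 and H69 (68.8%), 7 of 9 between H82 and COR-L88 (64.3%), 6 of 9 between H524 and H69 (58%), 8 of 9 between H524 and COR-L88 (59.1%) and 7 of 9 between H69 and COR-L88 cells (57%). The first of these counts was 4 without H82 library 2. The counts with COR-L88 cells include *GFI1*, which passed the filter of this model only with the COR-L88 libraries. A line has 1 parental or DMSO group, and COR-L88 cells carry DMSO where the others carry nothing, so line and batch cannot be told apart.

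*REST* was ordered H82 (5.02), H524 (4.78), COR-L88 (3.55) and H69 (0.07), of which the first pair did not differ beyond their spread (0.24 ± 0.18, adjusted *P* = 0.285) and the others did. *KDM1A* was ordered H82 (6.67), H524 (6.06), COR-L88 (5.32) and H69 (5.02), and only the last pair of neighbors was not called (adjusted *P* = 0.0592). *RCOR2* was at 5.92 in H524, 5.74 in H69, 4.78 in H82 and 2.66 in COR-L88 cells. H524 and H69 did not differ in it (0.18 ± 0.34, adjusted *P* = 0.67), the step from H69 to H82 (0.96 ± 0.34, adjusted *P* = 0.0251) was lost without library 2, 3, 47 or 48 (adjusted *P* = 0.0501 to 0.0994), and COR-L88 lay 2.12 ± 0.34 below H82 (adjusted *P* = 0.000187).

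*HDAC1* was at 9.81 in COR-L88, 9.30 in H82, 9.14 in H524 and 7.89 in H69 cells, with H82 and H524 not apart (adjusted *P* = 0.424). *INSM2* was at 5.42 in H82, 4.61 in H69, 2.69 in H524 and 1.09 in COR-L88 cells, with H82 and H69 not apart (adjusted *P* = 0.121, and 0.0322 without library 2). *GFI1* ran the other way, at 2.78 in COR-L88, 1.08 in H524, 0.89 in H69 and 0.06 in H82 cells, with H524 and H69 not apart (adjusted *P* = 0.341). Outside COR-L88 cells only library 19 of these untreated libraries reached 1, so *GFI1* passed the filter here only with the COR-L88 libraries. Its differences from COR-L88 cells are then values and no test. The line with the most *INSM2* was therefore the line with the least *GFI1*. Among the 9 genes tested, the smallest span of means over the lines was that of *RCOR3*, which lay between 4.44 and 5.11, and *RCOR1* lay between 2.65 and 3.53.

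Over the 20 human groups, with means centred within each line, the genes whose pattern was most like that of *REST* among 15887 genes were *UBE2L6* (Pearson *r* = 0.87), *KIF13A* (0.87) and *DHX32* (0.85), and the most opposite were *PLEKHJ1* (-0.89), *C19orf73* (-0.87) and *STX1A* (-0.87). For *KDM1A* they were *BUB1B* (0.96), *SPAG5* (0.95) and *OIP5* (0.94), all genes of mitosis, against *FRMD8* (-0.95), *LAMP1* (-0.95) and *KITLG* (-0.94). For *RCOR2* they were *ACBD7* (0.97), *HES6* (0.96) and *CHD7* (0.96), against *IFITM3* (-0.98), *MIR22HG* (-0.98) and *LMNA* (-0.97). The groups of a line share treatment, vector and culture, so these values are a description with no test. Of the 18 genes, 2 remained among the 18 named when the means were not centred within lines. Between members, *REST* had *r* = -0.58 with *RCOR2*, -0.61 with *INSM2*, 0.52 with *RCOR3* and -0.14 with *KDM1A* over the same 20 groups, and without centring *r* was -0.37 with *RCOR2* and 0.07 with *KDM1A*.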

How the data were processed

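RNA was sequenced from 69 libraries of 5 SCLC lines with a stranded polyA protocol and paired reads. The authors trimmed reads with Cutadapt, aligned them with STAR (human reads to hg19), counted them with RSEM, normalized them with edgeR (TMM) and deposited log2 values of RPKM + 1, with 1 table for the human lines and 1 for KP1. Read counts were not used here, so no count model was run. Groups came from the deposited sample labels, and every value column matched a sample.

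From the deposited log2 values, genes at 1 or more in at least 3 libraries of a model were tested with limma 3.58.1 (R 4.3.3, moderated test with a mean-variance trend and a mean for each group), with a model for each line, for the 4 untreated human groups and for *N1ICD* in 3 lines. Tests were two-sided, and the Benjamini-Hochberg adjustment ran over the whole set of tested genes. Errors of fold changes are SE, intervals are 95% intervals, and errors of shares are SD. Shares were tested with exact permutation tests. The script was tested on simulated data. Alternatives were a model of only the compared groups, no trend, no filter, median-centred libraries, a pseudocount of 0.1, leaving out each library, and quantile normalization.

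Named were all members in every group, the engineered genes *NOTCH1*, *STING1* (listed as *TMEM173*) and *REST*, up to 3 called genes with the largest fold change of each list and comparison, and the 3 highest and 3 lowest correlations for *REST*, *KDM1A* and *RCOR2*. Cell type markers were named after their values were seen, and 1 of them is not reported here. The members and lists were chosen with earlier results of these data known. RE1 matches were sought within 5000 bases of gene starts in GRCh37 with GENCODE annotation. No 2 libraries were identical. The lowest correlation between libraries of a group across genes was 0.957 in the human table and 0.936 in the KP1 table, the latter between TAS1440 libraries 5 and 6.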

Additional observations from a re-analysis of the deposited data

Results flagged for a closer look

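Responses of the same gene differed between groups by a test of the difference itself (limma, past the threshold of 0.05 after adjustment) in 21 cases, given here on the log2 scale. In H82 cells, the response to dox in *REST* KO cells minus that in intact cells was -1.14 for *RCOR3*, -0.60 for *HDAC1* and 3.43 for *INSM2*. The response in *STING1* KO cells minus that in intact cells was -1.21 for *REST* and -0.66 for *HDAC1*. In H524 cells, the response to *N1ICD* minus that to the *REST* vector was -1.01 for *KDM1A*, -1.84 for *RCOR2* and -1.67 for *GFI1*.

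The response to *N1ICD* in H69 minus that in H82 cells was 3.35 for *REST*, 1.60 for *KDM1A*, 0.81 for *HDAC1* and -1.25 for *GFI1*. H69 minus H524 cells gave 2.31 for *REST*, 1.14 for *KDM1A*, 1.66 for *HDAC1*, 0.70 for *HDAC2*, -0.65 for *GFI1* and -4.93 for *INSM2*. H524 minus H82 cells gave -0.85 for *HDAC1*, -0.59 for *GFI1* and 4.21 for *INSM2*. The *HDAC1* differences in H82 cells lay close to the threshold, with adjusted *P* = 0.0493 for *REST* KO and 0.0465 for *STING1* KO, and 0.0525 to 0.102 and 0.0516 to 0.11 in the refits without a library in which they were lost. The *GFI1* difference between H524 and H82 cells (adjusted *P* = 0.0453) was lost without any of libraries 4 to 9, 22, 23, 26 and 27, and those of *GFI1* (0.0153) and *HDAC2* (0.0142) between H69 and H524 cells without library 24 or 25 and without library 22 or 50. In H82 *N1ICD* cells *GFI1* was near 0 with and without dox and passed the filter through the other lines, so both *GFI1* differences with H82 cells are values and no test of a difference in response. The *INSM2* differences with H524 rest on a group in which library 23 stands apart from the other two.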

How the results depend on the processing

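Of 1847 fold changes recomputed under the other settings, 1787 kept their direction and side of the threshold, 35 lost a call, 25 gained one and 0 reversed; of 2280 recomputed without a library, 2112 kept both, 144 lost a call, 24 gained one and 0 reversed. The counts of members called that moved by over 1.5 times were these, and the cause was not tested. With a pseudocount of 0.1, the count went from 1 to 0 for H82 *N1ICD* without dox against parental cells, from 2 to 1 for the same comparison in H69 and from 0 to 1 for KP1 TAS1440 plus GSI against DMSO. Median-centred libraries gave 1 for that KP1 comparison and 1 in place of 2 for *STING1* KO against intact H82 cells with dox. Quantile normalization gave 1 for the latter, 5 in place of 3 for the difference between the 2 vectors in H524 and 1 in place of 0 for the difference in TAS1440 response in COR-L88 cells. With only the compared groups in the model, the count was 0 for *N1ICD* without dox against parental cells in H82 and in H524, 1 for *STING1* KO against intact H82 cells with dox, 3 for TAS1440 in COR-L88 *STING1* KO cells, 1 for *STING1* KO against intact COR-L88 cells with TAS1440 and 3 for H82 against H524.

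Without a library, counts ranged from 0 to 2 for H82 *N1ICD* without dox against parental cells (0 without 5 or 6, 2 without 4) and from 0 to 2 for the *STING1* KO difference in response in H82 (0 without 55). They ranged from 1 to 3 for *STING1* KO against intact H82 cells without dox (1 without 6, 55 or 56, 2 without 5) and from 1 to 2 with dox (1 without 7, 9, 58, 59 or 60). In H524 they ranged from 3 to 6 for *N1ICD* (3 without 25 or 26), from 3 to 5 for the vector difference (5 without 34), from 1 to 3 for *N1ICD* without dox against parental cells (1 without 19 or 20) and were 1 for the *REST* vector. They ranged from 0 to 1 for H69 without dox against parental cells (0 without 51), from 0 to 5 for *STING1* KO against intact COR-L88 cells with TAS1440 (0 without 15 or 43, 5 without 44), from 0 to 1 for the difference in TAS1440 response (1 without 44), from 0 to 1 for KP1 TAS1440 plus GSI (1 without 9) and from 4 to 8 for H82 against H524 (4 without 2). No *RCOR2* or *HDAC2* share difference moved by over 1 SD without a library. Leaving out 1 of 3 libraries cannot move a mean that far, so this is no test of stability. Of the 18 genes most like a member, 2 remained without centring. No paired analysis was possible because replicate numbers in the labels are running library numbers that no 2 groups of a table share. *GFI1* in H82 cells was near 0, where a fall cannot be seen, and since read counts were not used the depth behind each value is unknown.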
